A study of Homo sapiens with 12 samples.

Results

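The squamous keratins are 9 genes that stratified squamous epithelium uses to build its intermediate filaments, chosen by name: the basal keratins KRT5, KRT14 and KRT15, the stress keratins KRT6A, KRT6B, KRT16 and KRT17, and the suprabasal keratins KRT4 and KRT13. They were 9 of 57820 gene identifiers counted, and 8 of them passed the filter on low counts, since KRT6B had at most 10 reads in any library. The RNA came from Kyse410 and TE10, established lines of esophageal squamous cell carcinoma, stably infected with a construct that expresses a short hairpin RNA against UHRF1 (shUHRF1) or a scramble control hairpin. There were 4 groups of 3 polyadenylated RNA libraries, namely Kyse410 shUHRF1, Kyse410 scramble, TE10 shUHRF1 and TE10 scramble. UHRF1 is the ubiquitin ligase that recognises hemimethylated CpG sites and guides DNMT1 to newly copied DNA. All groups carry a hairpin construct, and the labels state neither how many hairpin sequences were used, nor whether a group's 3 libraries were grown as different cultures. The p-values therefore measure the spread between libraries, which may be technical.

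Keratins form filaments only as pairs of an acidic type I and a basic type II chain. Cells of the basal layer of squamous epithelium build filaments of KRT5 with KRT14 and KRT15. When these cells leave the basal layer in the esophagus they turn on KRT4 with KRT13, whereas KRT6A, KRT6B, KRT16 and KRT17 are induced in wounded, inflamed or fast-growing epithelium and in squamous carcinoma. Of the 9 genes, KRT5, KRT6A, KRT6B and KRT4 encode type II chains and lie on chromosome 12, and KRT14, KRT15, KRT16, KRT17 and KRT13 encode type I chains and lie on chromosome 17. In the RefSeq gene order KRT6B, KRT6C, KRT6A and KRT5 stand next to each other, as do KRT14, KRT16 and KRT17. Other keratin genes lie between KRT5 and KRT4 and between KRT13 and KRT14. The counts were made on GRCh37.p13, per the submitters' processing notes, and no positions in that build are given here.

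The copies within each cluster are so alike that their sequences bear on how the counts can be read. A stretch of each is therefore shown beside its near relatives. The stretches were picked by their number of differences from the near copies, so they do not show the typical likeness. The first set is coding bases 436 to 495 of KRT6A beside the best match in KRT6B, KRT6C and KRT5 (GENCODE 29 transcripts, 5′ to 3′). Capitals mark the bases that differ from KRT6A, and KRT6B and KRT6C have the same letters here and cannot be told apart by this stretch.
KRT6A: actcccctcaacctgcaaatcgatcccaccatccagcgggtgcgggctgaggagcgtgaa
KRT6B: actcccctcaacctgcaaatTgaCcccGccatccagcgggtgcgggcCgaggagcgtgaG
KRT6C: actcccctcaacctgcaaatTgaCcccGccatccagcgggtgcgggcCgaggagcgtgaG
KRT5: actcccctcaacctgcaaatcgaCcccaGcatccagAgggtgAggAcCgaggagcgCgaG
The second set is coding bases 838 to 897 of KRT16 beside 2 of its pseudogenes and its neighbour KRT14, with capitals for the bases that differ from KRT16.
KRT16: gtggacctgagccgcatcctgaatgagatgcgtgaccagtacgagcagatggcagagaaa
KRT16P2: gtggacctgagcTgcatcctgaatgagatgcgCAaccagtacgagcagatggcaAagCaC
KRT16P6: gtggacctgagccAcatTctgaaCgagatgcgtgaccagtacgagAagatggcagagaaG
KRT14: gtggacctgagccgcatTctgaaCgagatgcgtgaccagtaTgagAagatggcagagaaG
Of all stretches of 75 bases in each member's longest coding transcript, another keratin gene or pseudogene held an exact copy of 34.9% for KRT6B, 26.2% for KRT6A, 10% for KRT14 and 9.68% for KRT16. The share was 4.19% for KRT17 and 2.44% for KRT5, and no such stretch was found for KRT15, KRT4 or KRT13. The read length is not given in the sources used here, and HTSeq set aside 5.49 to 6.86% of each library as aligned to more than 1 place. KRT6B, KRT6A, KRT14 and KRT16 can therefore have lost reads to this class.

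Promoter sequences were at hand for KRT5 and KRT4, and they are shown because UHRF1 reads CpG sites and because these 2 genes had the largest changes with the hairpin in TE10 and in Kyse410. Each run is the 250 bases before the RefSeq start (GRCh38.p14, minus strand, 5′ to 3′), with CG in capitals. KRT5 is at chr12:52520395-52520644 and KRT4 at chr12:52814117-52814366.
KRT5: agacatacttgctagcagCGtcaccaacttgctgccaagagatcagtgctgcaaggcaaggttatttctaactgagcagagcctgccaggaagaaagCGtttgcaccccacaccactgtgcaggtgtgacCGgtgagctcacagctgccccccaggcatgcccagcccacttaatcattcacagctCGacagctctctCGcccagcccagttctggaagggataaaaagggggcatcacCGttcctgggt
KRT4: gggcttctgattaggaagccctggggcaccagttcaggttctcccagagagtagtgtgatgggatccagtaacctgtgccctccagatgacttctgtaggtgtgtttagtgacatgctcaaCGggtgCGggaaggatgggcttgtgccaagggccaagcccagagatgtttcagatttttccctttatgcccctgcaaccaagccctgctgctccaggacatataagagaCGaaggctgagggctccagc
KRT5 held 6 CG sites and KRT4 held 3, where the median of 35116 promoter windows of this length was 11. Of all windows, 41.1% held at most as many as KRT5 and 29.3% at most as many as KRT4. Neither window held TATAAA, the AP-1 letters TGANTCA, the Sp1 letters GGGCGG or the grainyhead letters AACCGGTT on either strand. These were found in 10.7%, 6.57%, 42.6% and 0.117% of all windows. Only these exact letters were sought, so a variant of any of them, such as another TATA-like run, was not counted. Methylation was not measured in these libraries.

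Gene reads numbered 7857662 to 12005229 per library, and levels are given as TMM-scaled CPM (a gene's reads scaled to a fixed library total), with the SD of 3 libraries. UHRF1 (ENSG00000034063, an identifier that the annotation at hand did not match and that was named from general knowledge) lay at 42.5 ± 0.892 CPM in Kyse410 shUHRF1 and 99.1 ± 3.47 CPM in Kyse410 scramble, and at 85.9 ± 3.49 CPM in TE10 shUHRF1 and 179 ± 5.34 CPM in TE10 scramble. Of 10 squamous markers, 3 of which (KRT5, KRT14 and KRT6A) are members, 8 averaged at least 1 CPM in every group. SOX2 and PKP1 averaged below 1 CPM in every group. The 6 blood cell markers summed to at most 1.31 CPM in any library. Of the fibroblast list COL1A2, COL3A1, DCN and LUM averaged at most 0.216 CPM in any group, while COL1A1 averaged 154 CPM in Kyse410 shUHRF1 and 114 CPM in Kyse410 scramble, and 51.2 CPM in TE10 shUHRF1 and 42.8 CPM in TE10 scramble. PDGFRB, the last of the 6, moved the other way, with 3.47 CPM in Kyse410 shUHRF1 and 5.8 CPM in Kyse410 scramble, and 0.736 CPM in TE10 shUHRF1 and 3.6 CPM in TE10 scramble. Of the endothelial list VWF stayed below 1 CPM, and CDH5 averaged 95.7 CPM in Kyse410 shUHRF1 and 24.7 CPM in Kyse410 scramble, and 14.1 CPM in TE10 shUHRF1 and 9.13 CPM in TE10 scramble. The part of these genes in the results was not tested. In bulk RNA, fewer cells that use a keratin and less keratin RNA per cell cannot be told apart.

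With the UHRF1 hairpin, TE10 cells held far less RNA of the basal keratins KRT5 and KRT14, less of the stress keratins KRT6A, KRT16 and KRT17, and more of the suprabasal keratin KRT13. In that line 5 of the 8 keratins tested fell and 1 rose (edgeR's quasi-likelihood test, adjusted p under 0.05 over all genes), where 38.8% of the 16060 genes tested were called, 20.0% as lower and 18.8% as higher. At a change of at least 2-fold, 4 of 8 were lower and none was higher, where 3.91% of all genes were lower, 2.14% higher and 6.05% either. Kyse410 cells responded differently, with falls in KRT14 and KRT17 and rises in KRT6A, KRT4 and KRT13, so that 2 of 8 fell and 3 rose, where 49.3% of all genes were called, 26.7% as lower and 22.6% as higher. Of these, KRT14 was lower and KRT4 higher by at least 2-fold, where 2.47% of all genes were lower by that much, 4.66% higher and 7.13% either. The median absolute log2 change of the 8 was 0.51 in Kyse410 and 0.98 in TE10, beside 0.27 and 0.24 for all genes tested.

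**Figure D1:**
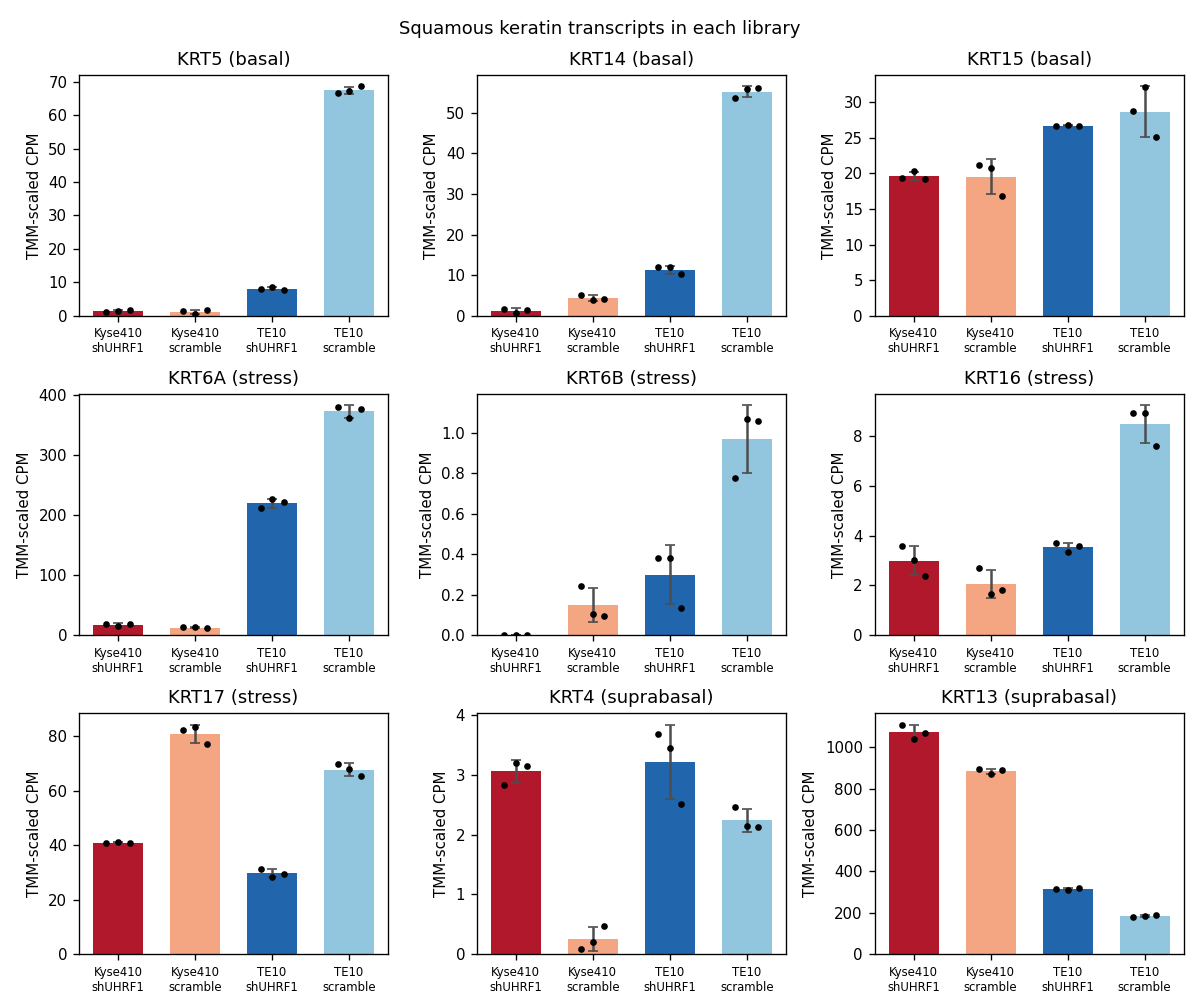
Level of each squamous keratin in TMM-scaled CPM (y axis, from 0, own scale per gene) in the 4 groups (x axis); bars are means of 3 libraries, error bars the SD and points the libraries. KRT5 and KRT14 stand high in TE10 scramble alone, KRT13 is highest in Kyse410, and KRT17 is lower with shUHRF1 in both lines.

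KRT5, the type II keratin of basal cells, showed the largest change of the 9 in TE10. It had 7.89, 8.56 and 7.69 CPM in the TE10 shUHRF1 libraries, against 66.5, 67.2 and 68.6 CPM in the TE10 scramble libraries. All shUHRF1 libraries lay far below all scramble libraries, an 8.37-fold difference (log2 −3.06 ± 0.117 SE, edgeR adjusted p = 4.21e-28). In Kyse410 the gene had few reads, 12, 17 and 15 reads (1.09, 1.39 and 1.63 CPM) in shUHRF1 and 16, 5 and 17 reads (1.30, 0.51 and 1.61 CPM) in scramble libraries. There the groups overlapped and the change did not pass (log2 0.22, 95% confidence interval −0.41 to 0.86, edgeR adjusted p = 0.59). The responses of the lines differed by 3.29 ± 0.358 on the log2 scale, Kyse410 minus TE10 (edgeR adjusted p = 8.43e-11).

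KRT14, the type I partner of KRT5, fell in both lines. It had 1.73, 0.655 and 1.52 CPM in Kyse410 shUHRF1, against 5.12, 3.88 and 4.17 CPM in Kyse410 scramble. It had 12, 11.9 and 10.2 CPM in TE10 shUHRF1, against 53.6, 55.9 and 56.0 CPM in TE10 scramble. The groups overlapped in neither line. The fall was 3.47-fold in Kyse410 (log2 −1.79 ± 0.243 SE, edgeR adjusted p = 1.29e-08) and 4.85-fold in TE10 (log2 −2.28 ± 0.115 SE, edgeR adjusted p = 5.66e-23). Tested against each other, the responses of the lines differed by 0.48 on the log2 scale, Kyse410 minus TE10, with an interval of −0.12 to 1.09, and this did not pass (edgeR adjusted p = 0.21). Without Kyse410 shUHRF1 replicate 2, the library with the fewest KRT14 reads (8), that difference was 0.87 and passed (edgeR adjusted p = 0.0233).

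KRT15, the other type I keratin of basal cells, did not pass the test in either line. It had 19.4, 20.3 and 19.2 CPM in Kyse410 shUHRF1 and 21.2, 20.7 and 16.8 CPM in Kyse410 scramble. In TE10 it had 26.6, 26.8 and 26.7 CPM in shUHRF1 and 28.8, 32.2 and 25.1 CPM in scramble libraries. The groups overlapped in each line. The interval was −0.20 to 0.21 in Kyse410 (edgeR adjusted p = 0.969) and −0.31 to 0.10 in TE10 (edgeR adjusted p = 0.466) on the log2 scale, so changes as large as those of KRT14 lie outside both.

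KRT6A, the most counted stress keratin in TE10 and a type II chain of activated epithelium, went in opposite directions in the lines. Its levels were 18.9, 15 and 18.4 CPM in Kyse410 shUHRF1, against 12.8, 13.4 and 11 CPM in Kyse410 scramble. They were 211, 226 and 221 CPM in TE10 shUHRF1, against 380, 361 and 376 CPM in TE10 scramble. In neither line did the groups overlap. KRT6A was 1.40-fold higher in Kyse410 (log2 0.48 ± 0.0997 SE, edgeR adjusted p = 5.74e-05) and 1.70-fold lower in TE10 (log2 −0.76 ± 0.0459 SE, edgeR adjusted p = 7.03e-20). The difference of the responses, Kyse410 minus TE10, was 1.24 ± 0.11 on the log2 scale (edgeR adjusted p = 1.18e-13).

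KRT6B, the near copy of KRT6A, had very few reads and was not tested. It had 0, 0 and 0 reads in Kyse410 shUHRF1 libraries, against 3, 1 and 1 in Kyse410 scramble libraries. In TE10 it had 3, 3 and 1 reads in shUHRF1, against 6, 9 and 10 in scramble libraries. A count of 0 over the Kyse410 shUHRF1 group allows a level of up to 0.0926 CPM. In TE10 the ratio of shUHRF1 to scramble was 0.309, with a 95% interval of 0.113 to 0.734 that covers counting error only. KRT6C had 2 reads in the 12 libraries together, 1 in TE10 shUHRF1 and 1 in Kyse410 scramble, so KRT6A held 98.5 to 100% of the reads of the 3 copies in each group.

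KRT16, a type I keratin that pairs with KRT6A in activated epithelium, fell in TE10. It had 3.69, 3.32 and 3.58 CPM in TE10 shUHRF1, against 8.92, 8.91 and 7.62 CPM in TE10 scramble, with no overlap (log2 −1.26 ± 0.218 SE, edgeR adjusted p = 4.77e-06). It had 3.56, 3.03 and 2.39 CPM in Kyse410 shUHRF1 and 2.68, 1.63 and 1.80 CPM in Kyse410 scramble, where the groups overlapped. The value in Kyse410 was 0.54 with an interval of 0.03 to 1.05 on the log2 scale and did not pass (edgeR adjusted p = 0.076). It passed without Kyse410 shUHRF1 replicate 3 (0.66, edgeR adjusted p = 0.0434) or without Kyse410 scramble replicate 1 (0.81, edgeR adjusted p = 0.0243). The responses differed between the lines by 1.80 ± 0.337, Kyse410 minus TE10 (edgeR adjusted p = 1.93e-05).

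Most reads of the KRT16 family were assigned to pseudogenes and not to KRT16. KRT16 itself held 4.44% of the reads of KRT16 and its 6 pseudogenes in Kyse410 shUHRF1, 3.95% in Kyse410 scramble, 17.5% in TE10 shUHRF1 and 18.3% in TE10 scramble. KRT16P6 lay at 32.2 CPM in Kyse410 shUHRF1 and 43.8 CPM in Kyse410 scramble, and at 9.35 CPM in TE10 shUHRF1 and 32.2 CPM in TE10 scramble. It was lower with shUHRF1 in both lines (log2 −0.45 ± 0.0844 in Kyse410 and −1.79 ± 0.119 in TE10, edgeR adjusted p = 1.41e-05 and 3.77e-18). The other pseudogenes that passed a test were higher with shUHRF1. KRT16P2 had 27.3, 25.5 and 26.5 CPM in Kyse410 shUHRF1, against 4.96, 5.61 and 5.68 CPM in Kyse410 scramble, a 4.88-fold rise with no overlap (log2 2.29 ± 0.129 SE, edgeR adjusted p = 2.54e-21). In TE10 it averaged 4.90 CPM in shUHRF1 and 4.3 CPM in scramble libraries and did not pass (edgeR adjusted p = 0.5). KRT16P3 rose in both lines, by 2.75 in Kyse410 (3.4 CPM in shUHRF1 and 0.499 CPM in scramble, edgeR adjusted p = 6.13e-08) and by 1.78 in TE10 (1.38 CPM in shUHRF1 and 0.402 CPM in scramble, edgeR adjusted p = 0.0072). KRT16P1 rose by 2.25 in Kyse410 (edgeR adjusted p = 3.75e-06) and did not pass in TE10 (1.11, edgeR adjusted p = 0.151).

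When the 6 pseudogenes' reads were added to KRT16 as a single feature, a step chosen after these values were seen, its response was 0.37 in Kyse410 (edgeR adjusted p = 2.84e-06) and stayed below 0 and called in TE10. The comparison of the scramble controls turned from −2.02 for KRT16 alone to 0.20 for the sum (edgeR adjusted p = 0.0114). Most of that sum was KRT16P6, at 43.8 of 52.7 CPM in Kyse410 scramble and 32.2 of 45.9 CPM in TE10 scramble. KRT16 shared no stretch of 75 bases with KRT16P6, whereas KRT14 shared 25 with it. A statement about KRT16 thus holds for the reads that HTSeq placed on this gene, and the part that misplaced reads of its copies play was not tested.

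**Figure D2:**
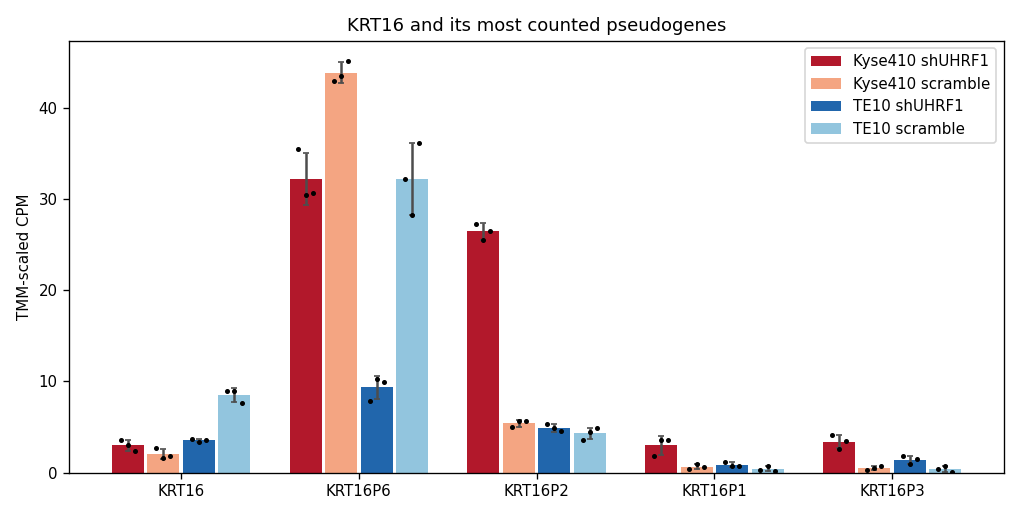
Level of KRT16 and its 4 most counted pseudogenes in TMM-scaled CPM (y axis, from 0), with bars for the mean of 3 libraries, error bars for the SD, points for the libraries and colours for the 4 groups. KRT16P6 exceeds KRT16 in every group, and KRT16P2 is high in Kyse410 shUHRF1 alone.

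KRT17, a type I keratin of wounded epithelium and carcinoma, fell in both lines. It had 40.9, 41.1 and 41.0 CPM in Kyse410 shUHRF1, against 82.2, 83.5 and 77.1 CPM in Kyse410 scramble. It had 31.3, 28.4 and 29.3 CPM in TE10 shUHRF1, against 70.0, 68.0 and 65.4 CPM in TE10 scramble. No shUHRF1 library reached the lowest scramble library of its line. The fold was 1.97 in Kyse410 (log2 −0.98 ± 0.0633 SE, edgeR adjusted p = 5.64e-19) and 2.28 in TE10 (log2 −1.19 ± 0.0737 SE, edgeR adjusted p = 2.12e-19). The difference between the lines was 0.21 with an interval of 0.01 to 0.41 on the log2 scale and did not pass (edgeR adjusted p = 0.0871). The 8 KRT17 pseudogenes took few reads, leaving 95.7 to 98.3% of the family's reads to KRT17 in each group.

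KRT4, the type II keratin of suprabasal esophageal cells, was scarce in every group. It had 31, 39 and 29 reads (2.83, 3.19 and 3.15 CPM) in Kyse410 shUHRF1, against 1, 2 and 5 reads (0.0813, 0.204 and 0.474 CPM) in Kyse410 scramble libraries. The groups did not overlap, and the fitted log2 change was 3.57 ± 0.428 SE (edgeR adjusted p = 5.69e-10). By summed reads, 99 against 8, the ratio was 12.5 with a 95% counting interval of 6.09 to 29.7. Without Kyse410 scramble replicate 3, which held 5 of those 8 reads, the fitted log2 change was 4.36. In TE10 it had 29, 27 and 19 reads (3.69, 3.45 and 2.52 CPM) in shUHRF1, against 19, 18 and 20 reads (2.46, 2.14 and 2.12 CPM) in scramble libraries. These did not overlap in CPM, but the change did not pass (log2 0.53, interval −0.08 to 1.14, edgeR adjusted p = 0.17). The responses differed by 3.04 ± 0.558, Kyse410 minus TE10 (edgeR adjusted p = 1.34e-05), and by 3.83 without Kyse410 scramble replicate 3.

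KRT13, the type I partner of KRT4, was abundant where KRT4 was scarce and rose in both lines. It had 1110, 1040 and 1070 CPM in Kyse410 shUHRF1, against 896, 872 and 889 CPM in Kyse410 scramble. It had 313, 311 and 319 CPM in TE10 shUHRF1, against 178, 184 and 188 CPM in TE10 scramble. The groups overlapped in neither line. The rise was 1.21-fold in Kyse410 (log2 0.27 ± 0.034 SE, edgeR adjusted p = 1.31e-09) and 1.71-fold in TE10 (log2 0.77 ± 0.04 SE, edgeR adjusted p = 1.54e-22), a difference of −0.50 ± 0.0525, Kyse410 minus TE10 (edgeR adjusted p = 2.88e-11). An annotated antisense gene, ENSG00000229732, overlaps KRT13 and averaged 388 CPM in Kyse410 shUHRF1 and 304 CPM in Kyse410 scramble, and 113 CPM in TE10 shUHRF1 and 64.7 CPM in TE10 scramble. The strand setting of the counting is not given in the sources used here, so whether reads of KRT13 and of this gene were kept apart is not known. HTSeq set aside 1.38 to 1.98% of each library as ambiguous, and KRT13 can have lost reads to this class.

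**Figure D3:**
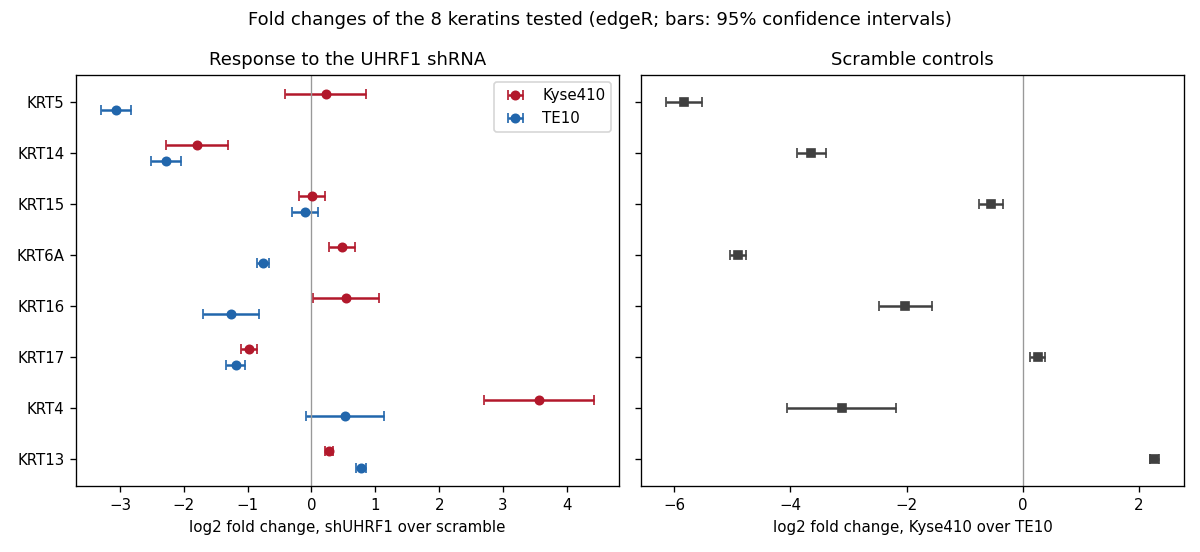
Log2 fold changes (x axes) of the 8 keratins tested (y axis) from edgeR, with 95% confidence intervals as bars: left, shUHRF1 over scramble in Kyse410 and in TE10; right, Kyse410 over TE10 among scramble controls. KRT14 and KRT17 are below 0 and KRT13 above 0 in both lines, while the values of KRT5 are −3.06 in TE10 and 0.22 in Kyse410.

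Taking the responses side by side, 5 of the 8 keratins differed in response between the lines by edgeR's test, where 38.9% of all genes did, 19.0% with the higher response in Kyse410 and 19.9% with the lower. KRT5, KRT6A, KRT16 and KRT4 had the higher response in Kyse410, each by at least 2-fold, where 5.42% of all genes did, 2.27% had a response lower by that much and 7.69% either. KRT13 had the higher response in TE10. KRT14, KRT15 and KRT17 did not pass. Mitochondrially encoded transcripts, a sign of RNA quality as well as of content, took 3.79 to 4.0% of gene reads in Kyse410 shUHRF1 and 2.30 to 2.43% in Kyse410 scramble, and 4.95 to 5.73% in TE10 shUHRF1 and 5.95 to 6.05% in TE10 scramble. With these transcripts left out before scaling, all member calls in all 4 comparisons kept their direction and their side of the threshold. That step removes only these reads, so whether RNA quality bears on the keratin values was not tested.

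The lines also differed in their keratins among the scramble controls. Kyse410 scramble cells had little RNA of KRT5, KRT6A and KRT14 and much of KRT13 relative to TE10 scramble cells. Of the 8 keratins tested 6 were lower and 2 higher in Kyse410 (edgeR, adjusted p under 0.05), where 73.7% of all genes were called, 37.1% as lower and 36.7% as higher. At 2-fold or more 5 were lower and 1 higher, where 12.3% of all genes were lower, 15.8% higher and 28.2% either. KRT5 was 57.4-fold lower (log2 −5.84 ± 0.154 SE, edgeR adjusted p = 1.14e-36), KRT6A 30.0-fold lower (−4.91 ± 0.0658 SE, adjusted p = 7.1e-50) and KRT14 12.4-fold lower (−3.64 ± 0.127 SE, adjusted p = 3.54e-31). Both counts of lower genes include KRT16 (log2 −2.02), whose value turned to 0.20 (edgeR adjusted p = 0.0114) with its pseudogenes' reads, mostly those of KRT16P6, added. KRT4 was at −3.12 on the log2 scale, and at −3.91 without Kyse410 scramble replicate 3, and KRT15 was at −0.55. KRT13 was 4.82-fold higher (2.27 ± 0.0384 SE, adjusted p = 2.15e-45) and KRT17 1.20-fold higher (0.26 ± 0.0612 SE, adjusted p = 0.000202). The knockdown comparisons use these same scramble libraries. The low start of KRT5 in Kyse410 and the absence of a called change there are thus not independent measurements.

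Levels of different genes were compared per length, as TMM-scaled CPM per kilobase of annotated exon. Among the 9, KRT13 led in Kyse410, at 368 ± 12 in shUHRF1 and 304 ± 4.17 in scramble libraries. KRT17 followed at 13.1 ± 0.0396 in shUHRF1 and 25.9 ± 1.08 in scramble libraries. KRT6A came next at 5.96 ± 0.728 in shUHRF1 and 4.23 ± 0.426 in scramble libraries, and KRT15 after it. The level of KRT15 was divided by 7069 bases of annotated exon, although its longest coding transcript has 1368 coding bases. The order of KRT6A and KRT15 thus depends on the length used. KRT13 alone made up 93.7% of the summed level of the 9 keratins in Kyse410 shUHRF1 and 89.4% in Kyse410 scramble. At the low end of the Kyse410 scramble order KRT5, KRT4 and KRT6B overlapped between neighbours, as did KRT16 with KRT4 and KRT14 with KRT5 in Kyse410 shUHRF1.

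In TE10 the leading keratin itself changed with the hairpin. Per length, TE10 shUHRF1 cells had KRT13 first at 108 ± 1.56 and KRT6A next at 74.9 ± 2.61, whereas TE10 scramble cells had KRT6A first at 127 ± 3.47 and KRT13 next at 63.0 ± 1.66. The libraries of these genes did not overlap in either group. KRT14 stood at 4.98 ± 0.432 in TE10 shUHRF1 and 24.2 ± 0.587 in TE10 scramble, and KRT5 at 1.88 ± 0.106 in TE10 shUHRF1 and 15.7 ± 0.248 in TE10 scramble. KRT15 and KRT16 overlapped in TE10 scramble. With the longest transcript as the length, KRT17 stood above KRT14 in TE10 scramble, and all other ranks in the 4 groups were kept. For KRT15 both lengths, 7069 and 5237 bases, far exceed its 1368 coding bases. This check therefore cannot show how far the rank of KRT15 depends on the length used.

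Type II chains made up 1.83 ± 0.133% of the summed per-length level of the 9 keratins in Kyse410 shUHRF1 and 1.36 ± 0.0812% in Kyse410 scramble, and 37.9 ± 0.978% in TE10 shUHRF1 and 55.3 ± 0.884% in TE10 scramble. Over all keratins, with 45 further genes such as KRT7, KRT8 and KRT18 of simple epithelium added, the type II share was 70.9 ± 0.385% in Kyse410 shUHRF1, 79.3 ± 0.237% in Kyse410 scramble, 66.9 ± 0.243% in TE10 shUHRF1 and 70.7 ± 0.768% in TE10 scramble. The 9 squamous keratins were a minority of this total, at 15.5 ± 0.195% in Kyse410 shUHRF1, 12.8 ± 0.149% in Kyse410 scramble, 10.7 ± 0.327% in TE10 shUHRF1 and 15.4 ± 0.135% in TE10 scramble. No test was run on these shares.

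**Figure D4:**
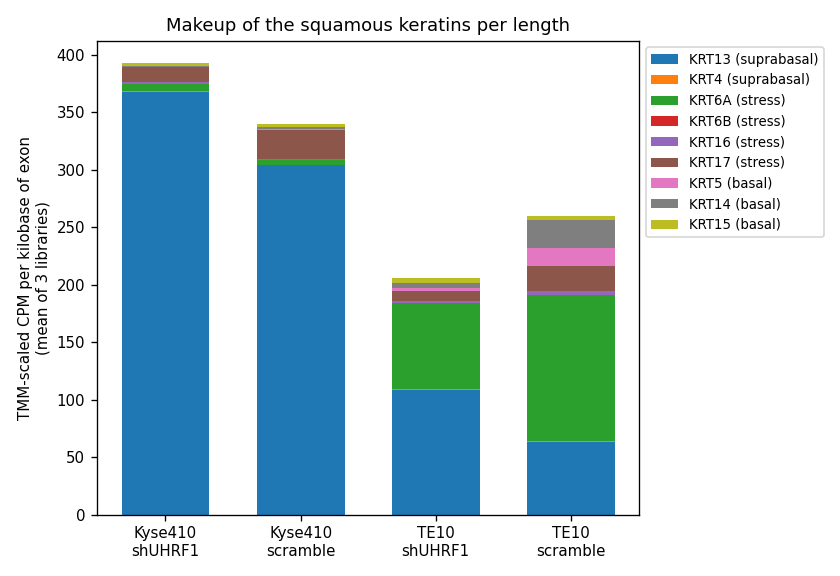
Summed level of the 9 squamous keratins per kilobase of exon (y axis, TMM-scaled CPM per kilobase, means of 3 libraries) in the 4 groups (x axis), divided by gene. KRT13 fills most of both Kyse410 bars, and in TE10 the KRT6A, KRT5 and KRT14 segments are smaller and the KRT13 segment larger in shUHRF1 than in scramble.

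The other 45 keratin genes gave 12 that could be tested. In Kyse410 3 of them rose and 6 fell with shUHRF1, where 49.3% of all genes were called, and in TE10 7 rose and 1 fell, where 38.8% were. KRT19, a type I keratin of simple and ductal epithelium, was the largest rise in each line (log2 1.34 ± 0.0452 in Kyse410 and 1.07 ± 0.041 in TE10). In Kyse410 KRT83, a hair keratin, fell by 0.98 and KRT8 rose by 0.67. In TE10 KRT34, another hair keratin, fell by 1.91 at a mean of 0.34 CPM in shUHRF1 and 1.34 CPM in scramble libraries, and KRT86 rose by 0.54. The median of the 12 was −0.26 in Kyse410 and 0.15 in TE10, beside −0.03 and 0 for all genes tested. Between the scramble controls, where 73.7% of all genes were called, 8 were higher and 3 lower in Kyse410, led by KRT83 (5.39), KRT12 (4.73) and KRT86 (3.76). KRT83 and KRT12 had 2 and 3 reads in the TE10 scramble libraries together, so their fitted values rest on very few counts. Of the responses, 3 were higher and 5 lower in Kyse410 than in TE10, where 38.9% of all genes differed, with the largest differences in KRT86 (−1.19), KRT10 (−0.81) and KRT81 (−0.78).

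Of 22 transcription factors and receptors known to act on keratin genes, 19 were tested. In Kyse410 7 rose and 6 fell, where 49.3% of all genes were called, and in TE10 10 rose and 6 fell, where 38.8% were, with medians of 0.09 and 0.12. OVOL1, a repressor active as keratinocytes leave the basal layer, rose in both lines, at 4.53 CPM in Kyse410 shUHRF1 and 0.411 CPM in Kyse410 scramble, and at 3.10 CPM in TE10 shUHRF1 and 0.161 CPM (4 reads) in TE10 scramble. GRHL3, a grainyhead factor of barrier formation, rose by 1.44 in Kyse410 and 3.31 in TE10. ELF3, an epithelial ETS factor, rose by 0.40 in Kyse410 and 1.90 in TE10. JUN, an AP-1 subunit, fell to 342 CPM in Kyse410 shUHRF1, against 1300 CPM in Kyse410 scramble (log2 −1.93 ± 0.0374). JUN was also lower with shUHRF1 in TE10 (log2 −0.56). TP63, the master regulator of the basal state, named here after its values were seen, was at 0.14 in Kyse410 and −0.69 in TE10 on the log2 scale and passed in both. Between scramble controls, where 73.7% of all genes were called, 12 of the 19 were higher in Kyse410 and 1 lower, with JUN (4.33), GRHL1 (3.58) and TFAP2C (1.86) farthest apart. The responses of 5 were higher and of 10 lower in Kyse410 than in TE10, where 38.9% of all genes differed, with GRHL3 (−1.87) and ELF3 (−1.5) among the most distant.

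Of 15 genes whose proteins anchor or bundle keratin filaments, most of them at desmosomes and hemidesmosomes, 13 were tested. In Kyse410 4 rose and 4 fell, where 49.3% of all genes were called, and in TE10 3 rose and 7 fell, where 38.8% were. None of those called changed by 2-fold or more, where 7.13% of all genes were called at that size in Kyse410 and 6.05% in TE10. The hemidesmosome subunit ITGB4 fell by 0.97 in TE10, where the desmosomal linkers PPL and JUP rose by 0.87 and 0.84. In Kyse410 the hemidesmosomal collagen COL17A1 fell by 0.57 and the desmosomal PKP2 by 0.55, and PPL rose by 0.34. Between scramble controls, where 73.7% of all genes were called, 4 were higher and 6 lower in Kyse410, with the filament-bundling FLG at −4.79 (2 reads in Kyse410 and 53 reads in TE10), PKP2 at 1.31 and PPL at 1.29. The responses of 5 were higher and of 4 lower in Kyse410 than in TE10, where 38.9% of all genes differed, led by ITGB4 (1.02), ITGA6 (0.74) and JUP (−0.71).

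Genes with patterns like those of 3 keratins were sought among 10585 named genes of at least 5 CPM, by the root mean square difference of centred log2 CPM over the 12 libraries. KRT13 had close matches in SGK1, a glucocorticoid-inducible kinase (0.0948), SCNN1A, the alpha subunit of the epithelial sodium channel (0.149), and ST3GAL4, a sialyltransferase (0.173). SGK1 averaged 654 CPM in Kyse410 shUHRF1, 578 CPM in Kyse410 scramble, 193.2 CPM in TE10 shUHRF1 and 129.7 CPM in TE10 scramble. KRT6A was farther from its nearest genes, the heat shock genes HSPA1L (0.5) and HSPA1A (0.542) and the actin-bundling LCP1 (0.572). HSPA1L and HSPA1A were also lower in both Kyse410 groups than in both TE10 groups, but HSPA1A averaged 430.6 CPM in TE10 shUHRF1 and 355.2 CPM in TE10 scramble. KRT5 had no gene within 0.9, its nearest being LCP1 (0.923), FDFT1 (0.983) and SLC12A8 (0.996). The likeness is a description over libraries that share the same 4 groups.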

How the data were processed

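The values deposited by the authors are unnormalized counts, a table for each library. The closing lines of each table tally reads outside genes (no feature, 42.88 to 44.66% of a library), and these were left out of all fits. Per the submitters' processing notes, the genome build was GRCh37.p13 and the tools were HISAT2 2.1.0, HTSeq 0.9.1, bcl2fastq 2.19 and DESeq2, with no roles or settings. The annotation release, strand setting and read length were not given in the sources used here. Symbols came from a table of gene names and GENCODE 29 by identifier (52338 of 57820 matched, holding 99.02% of gene reads), as did exon lengths, which are of GRCh38.

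Genes were kept by filterByExpr (16060), scaled by TMM and fitted with edgeR 4.0.16 in R 4.3.3, in a single quasi-likelihood model of 12 libraries with a mean per group (8 residual degrees of freedom). The contrasts set shUHRF1 against scramble within each line, the Kyse410 response against the TE10 response, and Kyse410 against TE10 in the scramble libraries. Benjamini-Hochberg adjustment ran across the whole set of fitted genes, and an adjusted p under 0.05 was called. SE is the absolute log2 fold change over the square root of F. Replicates of a group differed by more than counting error (chi-square per degree of freedom 1.57 to 2.92), and intervals made from summed reads hold counting error alone. Promoter sequences are RefSeq's (GRCh38.p14), and 2 of 9 members matched. DESeq2 1.42.0, other scalings, no filter, smaller fits, left-out libraries and a replicate block were tried as alternatives. The 9 keratins, the companion lists and the rule for named genes (the members, the 3 called genes of largest change per list and comparison, and the 3 nearest patterns of KRT5, KRT6A and KRT13) were chosen with earlier results of these data known. A gene that this rule also names is not reported here. Plots used Python 3.11.15 with matplotlib 3.10.9.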

Additional observations from a re-analysis of the deposited data

Results flagged for a closer look

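The response to shUHRF1 differed between the lines by its own test (edgeR, all 12 libraries) in 5 keratins. KRT5 was at 0.22 in Kyse410 and −3.06 in TE10, a difference of 3.29 on the log2 scale. KRT4 was at 3.57 in Kyse410 and 0.53 in TE10, a difference of 3.04, with 8 reads in all 3 Kyse410 scramble libraries together. KRT16 was at 0.54 in Kyse410 and −1.26 in TE10, a difference of 1.80. KRT6A was at 0.48 in Kyse410 and −0.76 in TE10, a difference of 1.24, the libraries moving in opposite directions without overlap. KRT13 was at 0.27 in Kyse410 and 0.77 in TE10, a difference of −0.50.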

How the results depend on the processing

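Of 464 values of the 8 keratins under alternatives, 457 kept their direction and their side of the threshold, 4 passed where the reported value did not, none of the calls was lost, and 3 changed sign. The 4 are the KRT14 difference and the 3 KRT16 values in Kyse410 given above, and the change of sign in a called value is KRT16 between scramble controls, at 0.20 with its pseudogenes' reads added. The other 2 are values in Kyse410 that did not pass, with left-out libraries: KRT5 ranged from −0.09 (without scramble replicate 2) to 0.51, and KRT15 from −0.09 (without scramble replicate 3) to 0.07. The counts of members and of all genes called stayed within 1.5 times the reported ones under RLE or no scaling, DESeq2, no filter, fits of the 2 groups compared (not made for the difference of responses), no mitochondrial transcripts and each left-out library. Same-numbered libraries showed no shared deviation (correlations −0.0123 to 0.0371). This cannot tell whether they were prepared together, since counting error can hide a small shared deviation. With a replicate block 3084 genes were higher and 3262 lower in TE10, beside 3019 and 3212 without it, and no call of a keratin changed. Over left-out libraries KRT4 in Kyse410 ranged from 3.10 to 4.36 (the highest without scramble replicate 3) and KRT5 in TE10 from −3.11 to −3.02. With the longest transcript as length the type II share of the 9 keratins was 1.49% in Kyse410 shUHRF1, 1.11% in Kyse410 scramble, 33.0% in TE10 shUHRF1 and 51.1% in TE10 scramble. Depth limits KRT6B, KRT4, KRT16 and, in Kyse410, KRT5 and KRT14, where few reads set the precision.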
